A study of Mus musculus with 2 samples.

Results

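Duox2, Duoxa2, Nos2 and Pigr, 4 of the 52636 genes in the count matrices, were followed across cell classes and epithelial types of the intestine in 2 mouse embryos. The genes were chosen by their transcript counts in these same libraries, so their differences between the embryos are given as a description and were not tested. Both embryos were at day E18.5 and on the C57BL/6 background. The Casp8-mutant embryo was Casp8 C362A/C362A Mlkl -/-, so it carried the C362A substitution of the catalytic cysteine of caspase-8 on both alleles and lacked Mlkl. The embryo it was set against was Mlkl -/- with no Casp8 change named, and is called Mlkl-null. MLKL, which forms pores in the membrane during necroptosis, was missing by genotype from both embryos. Intestines were dissociated with papain and measured as 1 droplet library per embryo. The labels describe the tissue both as whole intestine and as small intestine, so its extent is not settled.

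The dual oxidase DUOX2 sits in the apical membrane of epithelial cells and releases hydrogen peroxide into the lumen. It leaves the endoplasmic reticulum only together with its maturation factor DUOXA2. NOS2, the inducible nitric oxide synthase, makes nitric oxide from arginine and needs tetrahydrobiopterin as a cofactor. PIGR, the polymeric immunoglobulin receptor, carries dimeric IgA from the basolateral to the luminal side of epithelial cells. All of them are known in mouse intestine as genes that respond to microbes and inflammatory cytokines.

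Duox2 (ENSMUSG00000068452) lies on the minus strand at chr2:122279247-122298449 and has 32 exons in its first listed transcript. Duoxa2 (ENSMUSG00000027225; chr2:122298900-122302885, plus strand, 6 exons) starts 451 bp away and is read in the opposite direction, so the genes are divergent neighbours. The second oxidase and factor, Duox1 and Duoxa1, form a like pair 3′ of Duoxa2. The ends of Duoxa2 and Duoxa1 overlap by 695 bp on opposite strands. The use of strand in counting was not stated, so reads from the shared stretch cannot be told apart. Nos2 (ENSMUSG00000020826) is at chr11:78920787-78960254 on the plus strand with 27 exons. Pigr (ENSMUSG00000026417) is at chr1:130826684-130852249 on the plus strand with 11 exons. Duox2, Nos2 and Pigr overlap no other annotated gene. Positions are from GENCODE M21 on mm10.

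The 250 bases before the RefSeq start (build GRCm38.p6) are shown for the 3 of 4 genes that matched the promoter table, because Duox2 and Duoxa2 are divergent neighbours that were detected in the same cell types. They span chr2:122298228-122298477 on the minus strand for Duox2, chr2:122298650-122298899 on the plus strand for Duoxa2, and chr1:130826434-130826683 on the plus strand for Pigr. Capitals mark matches on either strand to the TATA word TATAAA, the E-box CACGTG, the interferon-response word AANNGAAA, the STAT word TTCNNNGAA or the NF-kB consensus. The RefSeq start of Duox2 lies 222 bp inside the GENCODE gene.
Duox2: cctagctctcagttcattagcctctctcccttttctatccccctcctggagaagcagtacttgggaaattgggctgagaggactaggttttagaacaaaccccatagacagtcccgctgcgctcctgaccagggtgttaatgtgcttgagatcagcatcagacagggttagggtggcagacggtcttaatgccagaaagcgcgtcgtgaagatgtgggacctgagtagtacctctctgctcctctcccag
Duoxa2: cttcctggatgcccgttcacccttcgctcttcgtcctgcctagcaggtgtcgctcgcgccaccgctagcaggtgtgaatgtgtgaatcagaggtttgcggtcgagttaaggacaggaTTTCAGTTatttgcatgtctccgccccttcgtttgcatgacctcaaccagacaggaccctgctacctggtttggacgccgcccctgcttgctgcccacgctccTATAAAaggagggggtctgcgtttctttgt
Pigr: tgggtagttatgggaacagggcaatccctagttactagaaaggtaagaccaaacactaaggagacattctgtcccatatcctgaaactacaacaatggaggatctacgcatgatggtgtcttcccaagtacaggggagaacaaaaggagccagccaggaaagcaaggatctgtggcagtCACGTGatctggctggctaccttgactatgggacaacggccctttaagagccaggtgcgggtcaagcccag
The Duoxa2 window held TATAAA 30 to 25 bases before the start, a word found in 12.4% of 32851 promoter windows. It also held TTTCAGTT, a minus-strand match to AANNGAAA, 133 to 126 bases before the start, and 21.3% of windows held such a match. The Pigr window held the E-box CACGTG 71 to 66 bases before the start, as did 6.02% of windows. The Duox2 window matched none of these words. However, 222 of its 250 bases lie inside the GENCODE gene, so little sequence before the GENCODE start was searched. TTCNNNGAA was in 7.02% and the NF-kB consensus in 7.25% of windows, and no match to either was found in these 3 windows. After the start, Pigr carried acagTTTCAGTTttga, whose capitals begin at base 8 and spell the same 8 letters as in Duoxa2. AANNGAAA matched 3.23% of windows of the 50 bases after the start, and that exact word, on either strand, was in 1.73% of windows running from 250 bases before to 50 after. Pigr also carried tgccTTCCTGGAAgc, a match to TTCNNNGAA that begins at base 40, as did 1.15% of windows after the start. The 8-letter word was picked after it was seen in both genes, and a match describes letters only.

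Unique molecular identifiers (UMIs) count captured transcripts. There were 2804929 UMIs over 1014 barcodes in the Casp8-mutant library and 6290008 UMIs over 1478 barcodes in the Mlkl-null library. Of these, 873 and 1435 cells were retained, and 574 Casp8-mutant and 1182 Mlkl-null cells fell into clusters named epithelial-like, with all 14 epithelial markers in most of those clusters. Their median depth was 2515 UMIs in the Casp8-mutant library and 3902 in the Mlkl-null library. The libraries shared 2 barcodes. Xist had 8478 UMIs in the Casp8-mutant library and 2 in the Mlkl-null library, and the Y-linked Ddx3y 2 and 277, so sex and genotype cannot be told apart. With 1 embryo per genotype no difference has a replicate check, and every interval is a 95% interval for counting error only. Casp8 had 235 and 401 UMIs and Mlkl 13 and 1 in all barcodes of those libraries, but 3′ tags neither read the substitution nor need fall in the deleted part of Mlkl.

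Epithelial-like cells of the Casp8-mutant embryo held Duox2 and Duoxa2 transcripts, which were at or next to 0 in the Mlkl-null embryo, and more Pigr. Nos2 was also detected in them and at 0 in the Mlkl-null embryo, but its level was not separate from that of other Casp8-mutant cells. Levels are given as CPM, the count per 1e6 UMIs of the class. All 4 genes were at least 2-fold higher, against a background of 17.9% of 13910 genes that were at least 2-fold higher and 20.3% at least 2-fold lower. The median gene stood at -0.19 on the log2 scale. Under median-of-ratios scaling, which moved all log2 folds by 0.19, the background was 21.8% higher and 15.6% lower.

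Duox2 had 120 UMIs (60.5 CPM, 50.2 to 72.4) in Casp8-mutant epithelial-like cells and 0 UMIs in Mlkl-null ones, where the interval reached 0.695 CPM. Set against a floor of 3 counts in the Mlkl-null class, it was at least 107-fold higher. Duoxa2, its maturation factor, had 313 UMIs (158 CPM, 141 to 176) in Casp8-mutant cells and 3 UMIs (0.565 CPM, 0.117 to 1.65) in Mlkl-null cells, a 279-fold ratio (94.7 to 1362). The neighbouring Duox1 had 1 and 0 UMIs and Duoxa1 3 and 0 UMIs in the same classes. Of the 2 divergent pairs of the locus, only Duox2 and Duoxa2 were thus detected above the floor.

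**Figure D1:**
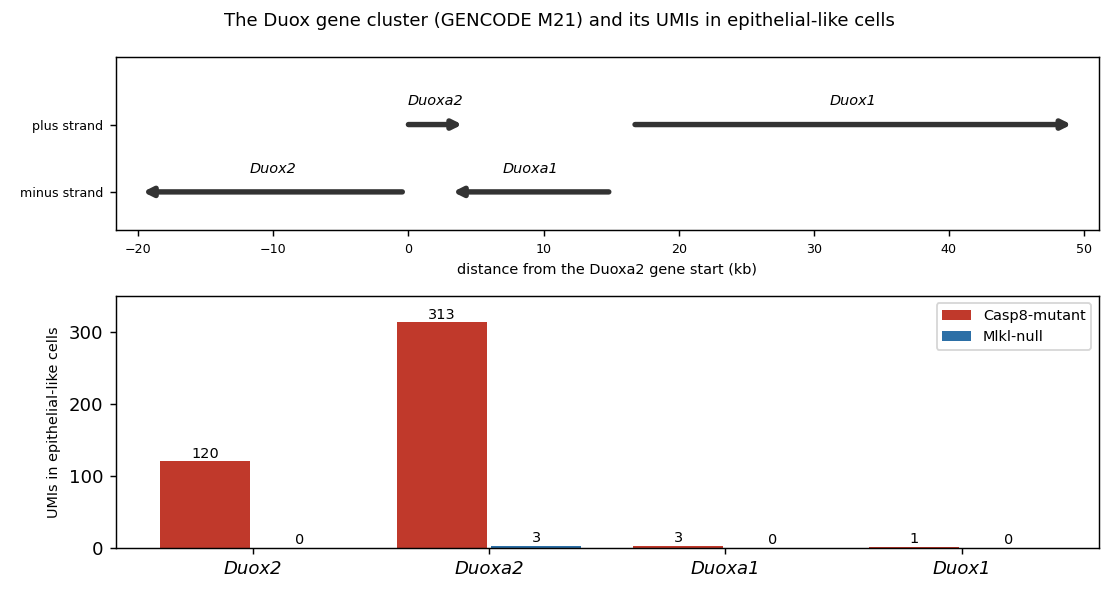
Top, the 4 Duox genes drawn to scale by distance from the Duoxa2 start in kb, with arrows pointing 5′ to 3′; bottom, summed UMIs of epithelial-like cells from the Casp8-mutant (red) and Mlkl-null (blue) libraries. Duox2 and Duoxa2 had 120 and 313 UMIs in the Casp8-mutant library, and no bar for Duoxa1 or Duox1 exceeds 3.

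Nos2 had 29 UMIs (14.6 CPM, 9.80 to 21) in Casp8-mutant epithelial-like cells and 0 UMIs in Mlkl-null ones (up to 0.695 CPM), at least 25.9-fold higher against the floor. Pigr had 178 UMIs (89.8 CPM, 77.1 to 104) in Casp8-mutant and 209 UMIs (39.4 CPM, 34.2 to 45.1) in Mlkl-null epithelial-like cells, 2.28-fold higher (1.86 to 2.80). Pigr was the member with a clear level in both embryos. In cells with at least 1000 genes, of which 65 Casp8-mutant and 1066 Mlkl-null cells were epithelial-like, the Pigr ratio was 3.96.

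Epithelial-like cells held 93.8% of the Duox2 UMIs, 95.4% of the Duoxa2 UMIs, 87.9% of the Nos2 UMIs and 94.2% of the Pigr UMIs of retained Casp8-mutant cells. The 299 other Casp8-mutant cells, of which 41 were enteroendocrine-like, held 8 Duox2, 15 Duoxa2, 4 Nos2 and 11 Pigr UMIs. Those counts correspond to 12.9 CPM (5.58 to 25.5), 24.2 CPM (13.6 to 40.0), 6.47 CPM (1.76 to 16.6) and 17.8 CPM (8.88 to 31.8). For Duox2, Duoxa2 and Pigr these intervals lay below those of the epithelial-like class. For Nos2 they overlapped, and the 129 myeloid-like Casp8-mutant cells, a class in which NOS2 is known from activated macrophages, held 3 Nos2 UMIs (12.8 CPM, 2.64 to 37.4). The 253 Mlkl-null cells outside the epithelial-like class held 0 Duox2, 1 Duoxa2, 0 Nos2 and 4 Pigr UMIs. In the other classes with at least 20 cells, no member exceeded 7 UMIs in a library.

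**Figure D2:**
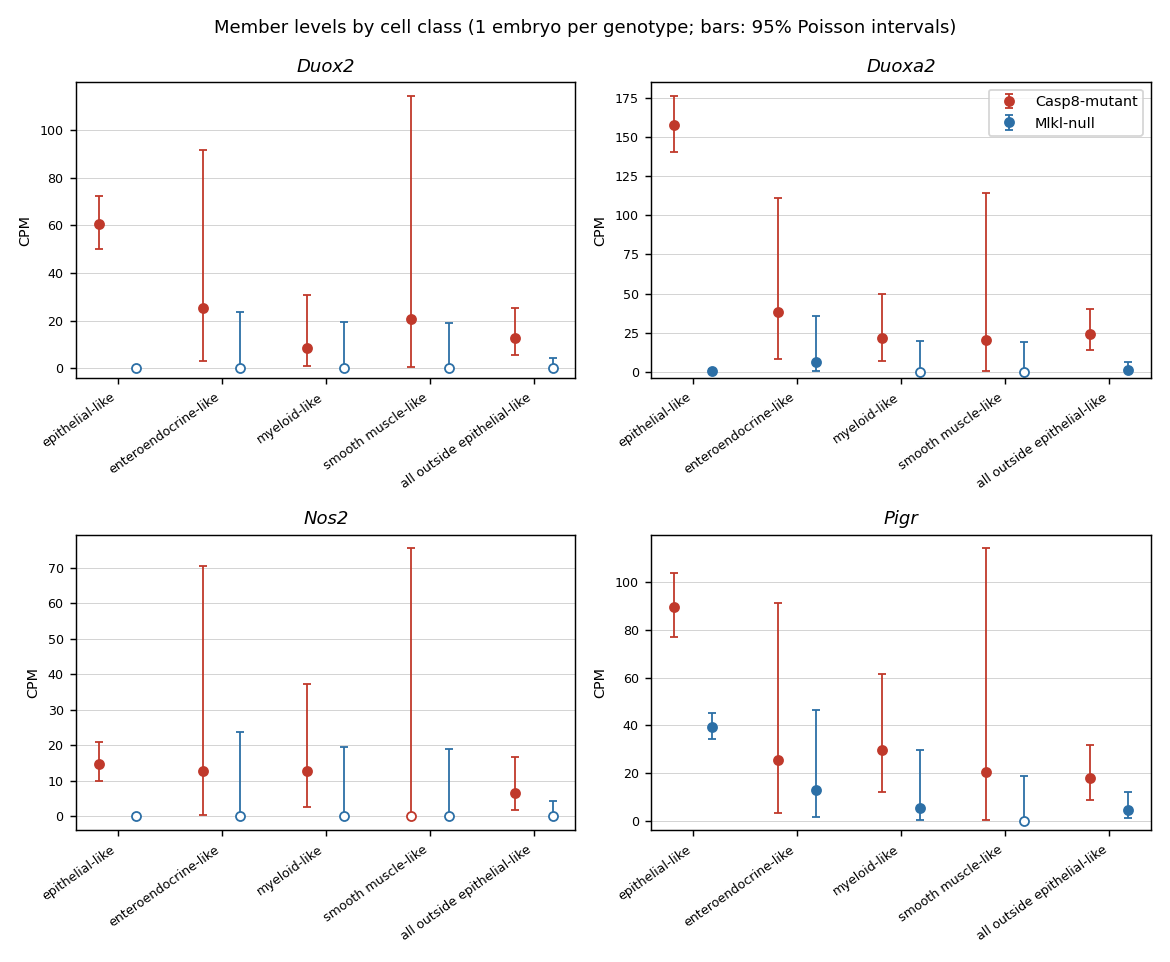
Level of each member in CPM by cell class, Casp8-mutant (red) left of Mlkl-null (blue), with 95% Poisson intervals and open points for 0 UMIs; the rightmost pair holds all cells outside the epithelial-like class. Duox2, Duoxa2 and Pigr are highest in the epithelial-like class of the Casp8-mutant library, while the Nos2 intervals of its classes overlap.

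The share of epithelial-like cells with a UMI followed the same order of embryos. Duox2 was seen in 15.9% of Casp8-mutant cells (13.0 to 19.1) and in 0 of 1182 Mlkl-null cells, where the interval reached 0.312%. Duoxa2 was seen in 28.9% (25.2 to 32.8) and 0.254% (0.0524 to 0.740), Nos2 in 4.53% (2.98 to 6.57) and 0% (up to 0.312%), and Pigr in 21.3% (18.0 to 24.8) and 9.98% (8.33 to 11.8) of Casp8-mutant and Mlkl-null cells. In Casp8-mutant cells outside the class, at a median of 1589 UMIs against 2515, shares were 2.68% for Duox2, 5.02% for Duoxa2, 1.34% for Nos2 (0.366 to 3.39) and 3.01% for Pigr. The Nos2 share inside the class thus overlapped the share outside it.

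After thinning every cell to 2000 UMIs, 343 Casp8-mutant and 1052 Mlkl-null epithelial-like cells were left, and 231 and 130 shallower cells were dropped. Duox2 was then in 8.45% of Casp8-mutant cells (5.74 to 11.9) and in 0 Mlkl-null cells (up to 0.285%). Duoxa2 was in 22.4% (18.1 to 27.2) of Casp8-mutant cells and 0.190% (0.0230 to 0.685) of Mlkl-null cells. Nos2 was in 2.33% (1.01 to 4.54) of Casp8-mutant cells and in 0 Mlkl-null cells. Pigr was in 16.0% (12.3 to 20.4) of Casp8-mutant cells and 5.04% (3.80 to 6.54) of Mlkl-null cells. At equal depth the Casp8-mutant intervals of all 4 genes lay above the Mlkl-null ones.

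**Figure D3:**
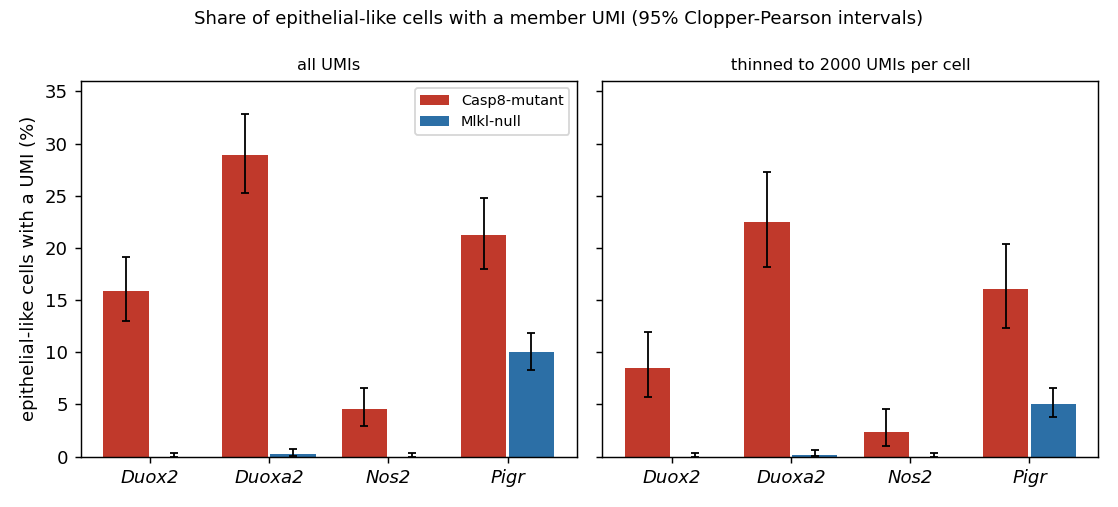
Percent of epithelial-like cells with at least 1 UMI of each gene, Casp8-mutant (red) left of Mlkl-null (blue), with all UMIs (left) and after thinning to 2000 UMIs per cell (right); error bars are 95% Clopper-Pearson intervals. Thinning lowers the Casp8-mutant share of Duoxa2 to 22.4%, against 0.190% in Mlkl-null cells.

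Within Casp8-mutant epithelial-like cells most positive cells held 1 UMI. Duox2 was seen with 1 UMI in 72 cells, 2 in 13 and more in 6, with a highest count of 6. Duoxa2 was seen with 1 UMI in 96 cells, 2 in 35 and more in 35, with a highest count of 8. Duoxa2 was in 57.1% of Duox2-positive cells (46.3 to 67.5) and in 23.6% of Duox2-negative cells (19.9 to 27.6), but the positive cells were deeper, at a median of 4888 against 2217 UMIs. At 2000 UMIs per cell the shares were 44.8% (26.4 to 64.3) of 29 positive cells and 20.4% (16.1 to 25.3) of 314 negative cells. At 1500 UMIs per cell they were 27.6% (12.7 to 47.2) of 29 positive and 17.5% (13.9 to 21.5) of 412 negative cells, whose intervals overlap, so the separation depended on the depth. At 2000 UMIs Pigr was in 18.2% of Duoxa2-positive cells (10.3 to 28.6) and 15.4% of the others (11.3 to 20.3), and those intervals overlap. Cells of 1 library share their source, and types were mixed in these shares. Within cycling-like cells alone the thinned Duoxa2 shares were 50% (24.7 to 75.3) of 16 Duox2-positive cells and 24.1% (17.3 to 32.0) of the others, whose intervals overlap.

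The epithelial-like cells were divided into types by clustering without the 4 genes and without interferon and antimicrobial genes. Different clusters held most of a type in each embryo. Cycling-like cells were cluster 0 in the Casp8-mutant embryo (176 cells, led by Npm1, Ptma and Hmgb2) and cluster 8 in the Mlkl-null embryo (145 cells with 6 from cluster 0, led by Ccnd2 and Edn1). Cluster 0 had 1 cycling marker among its 50 leading genes, and the cluster of 138 cells led by Npm1 and Ptma that formed when this library was clustered alone stayed unnamed. Goblet-like cells (105 Casp8-mutant and 79 Mlkl-null) came mostly from cluster 1 in the Casp8-mutant embryo (81 cells) and cluster 3 in the Mlkl-null embryo (54 cells), and cluster 3 was led by the Paneth cell defensin genes Defa24 and Defa30. Distal enterocyte-like cells were cluster 5 in the Casp8-mutant embryo (151 cells in all) and cluster 6 in the Mlkl-null embryo (310 cells in all), both led by Afp. Cluster 5 had 1 distal enterocyte marker among its 50 leading genes and cluster 6 had 3. With the Casp8-mutant library clustered alone, 150 cells led by Afp kept this name, while 59 cells led by the distal marker Fabp6 stayed unnamed. Enterocyte-like cells (496) came from the Mlkl-null embryo in this joint clustering, while 36 Casp8-mutant cells led by Ccl5 and Ubd received that name when their library was clustered alone. Clusters 2 (119 Casp8-mutant cells) and 7 (1 Casp8-mutant and 128 Mlkl-null cells) were led by the small nuclear RNA gene Rn7sk and predicted Gm genes and stayed unnamed.

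In cycling-like and goblet-like cells Duox2 and Duoxa2 were high in the Casp8-mutant embryo and near 0 in the Mlkl-null embryo. Duox2 was at 71.5 CPM (55.9 to 90.2; 71 UMIs) in Casp8-mutant cycling-like cells, against 0 UMIs in Mlkl-null ones, and at 66.6 CPM (42.2 to 99.9; 23 UMIs) in Casp8-mutant goblet-like cells, against 0 UMIs in Mlkl-null ones. Duoxa2 was at 164 CPM (140 to 191; 163 UMIs) in Casp8-mutant cycling-like cells, against 1.78 CPM (0.216 to 6.44; 2 UMIs) in Mlkl-null ones. In goblet-like cells Duoxa2 was at 165 CPM (125 to 214; 57 UMIs) in the Casp8-mutant embryo and at 0 UMIs in the Mlkl-null embryo. Against the floor Duox2 was at least 26.7-fold higher in cycling-like and at least 12.0-fold higher in goblet-like cells, and Duoxa2 at least 29.8-fold higher in goblet-like cells. Of the 3 members with at least 20 UMIs in each type, 2 were at least 2-fold higher, beside 10.7% of 9815 genes in cycling-like and 7.2% of 5835 genes in goblet-like cells, where 22.6% and 24.5% were lower.

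Duox2 and Duoxa2 were low in distal enterocyte-like cells of the Casp8-mutant embryo. Duox2, Duoxa2 and Nos2 had 3 UMIs each there (11.7 CPM, 2.40 to 34.1), against 0 UMIs each in Mlkl-null distal enterocyte-like cells. The share of these cells with a Duoxa2 UMI was 1.99% (0.412 to 5.70), at a median depth of 1653 UMIs. It was no higher than the 3.88% (1.27 to 8.81) of Casp8-mutant myeloid-like cells, at 1548 UMIs, and is not read as expression. In the Casp8-mutant embryo, the order of Duoxa2 levels was cluster 2 (273 CPM, 219 to 336), goblet-like, cycling-like, cluster 4 (31.5 CPM from 2 UMIs in 22 cells, 3.81 to 114) and distal enterocyte-like cells. Goblet-like and cycling-like cells did not differ beyond their intervals, nor did cluster 4 and distal enterocyte-like cells. For Duox2, the intervals of cycling-like, goblet-like and cluster 2 cells (65.1 CPM, 40.3 to 99.5) overlapped.

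Nos2 had its highest level in cluster 2, at 37.2 CPM (19.2 to 65.0) from 12 of the 29 epithelial UMIs. It had 10 UMIs (10.1 CPM, 4.83 to 18.53) in Casp8-mutant cycling-like cells and 3 UMIs (8.68 CPM, 1.79 to 25.4) in Casp8-mutant goblet-like cells. No UMI of it was found in any Mlkl-null type. Without clusters 2 and 7, Nos2 was at least 16.9-fold higher in Casp8-mutant epithelial-like cells.

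Pigr was near equal between the embryos in cycling-like cells and higher in the Casp8-mutant embryo in goblet-like cells. Both types were a different mix of clusters in each embryo. The cycling-like cells were cluster 0 in the Casp8-mutant embryo and mostly cluster 8 in the Mlkl-null embryo. In cycling-like cells Pigr was at 68.5 CPM (53.2 to 86.9; 68 UMIs) in the Casp8-mutant embryo and 75.8 CPM (60.5 to 93.7; 85 UMIs) in the Mlkl-null embryo, a ratio of 0.904 (0.647 to 1.26). In goblet-like cells it was at 148 CPM (110 to 194; 51 UMIs) in the Casp8-mutant and 77.4 CPM (55.8 to 105; 42 UMIs) in the Mlkl-null embryo, 1.91-fold higher (1.24 to 2.94). Within the clusters that make up this type the separate level intervals overlapped, in cluster 1 only between 116 and 119 CPM. No ratio interval was computed within a cluster, so equal levels cannot be read from that overlap. Cluster 1 had 162 CPM (116 to 221) in 81 Casp8-mutant cells and 54.7 CPM (20.1 to 119) in 25 Mlkl-null cells, and the defensin-led cluster 3 had 112 CPM (55.7 to 199.6) in 24 Casp8-mutant cells and 83.2 CPM (58.2 to 115) in 54 Mlkl-null cells. In distal enterocyte-like cells it had 6 UMIs (23.3 CPM, 8.55 to 50.7) in the Casp8-mutant and 3 UMIs (2.28 CPM, 0.471 to 6.67) in the Mlkl-null embryo, too few for the 20-UMI minimum, and the share of Casp8-mutant cells with a UMI (3.31%) was no higher than the 3.88% of Casp8-mutant myeloid-like cells. The difference between types was not tested.

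The Mlkl-null embryo had 35.8 CPM of Pigr (27.7 to 45.4) in its enterocyte-like cells, and by cluster 45.6, 37.7 and 8.90 CPM. The last of these clusters was led by Cd36 and Apoa4, genes of lipid uptake and transport. In cluster 4, led by Edn1 and Car2, Pigr had 12 UMIs in 22 Casp8-mutant cells (189 CPM, 97.6 to 330.0) and 0 UMIs in 24 Mlkl-null cells (up to 34.5 CPM). Averaged with equal weight over the 3 types named in both embryos, Pigr was at 79.8 CPM in the Casp8-mutant and 51.8 CPM in the Mlkl-null embryo, 1.54-fold higher, which is under the 2-fold size rule and under the interval of the ratio over the whole class. Over the same types Duoxa2 averaged 114 CPM in the Casp8-mutant and 0.594 CPM in the Mlkl-null embryo.

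**Figure D4:**
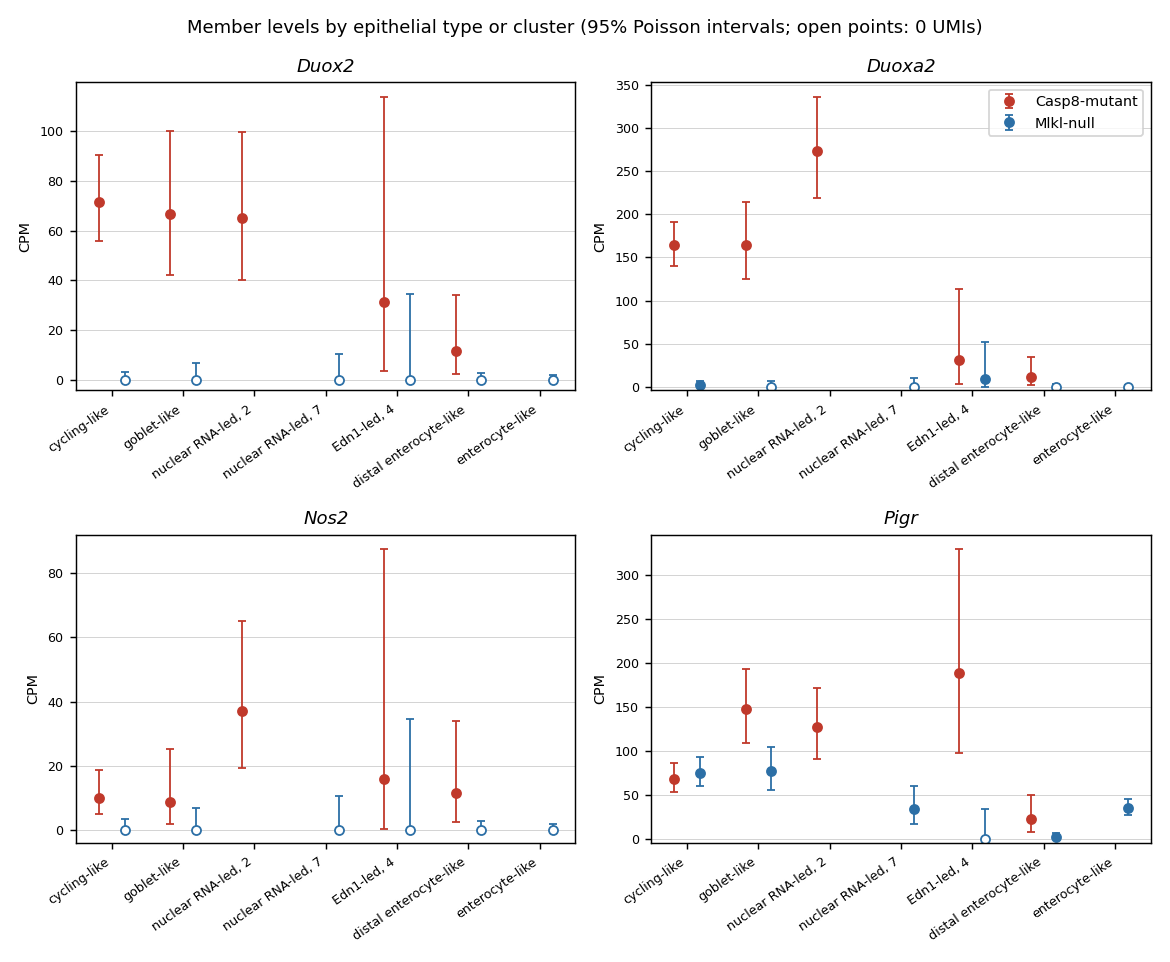
Level of each member in CPM by epithelial type or unnamed cluster, Casp8-mutant (red) left of Mlkl-null (blue), with 95% Poisson intervals and open points for 0 UMIs; a group is drawn where a library gives it at least 20 cells. Pigr intervals of the 2 embryos overlap in cycling-like cells and separate in goblet-like cells taken as a whole, while Duox2 and Duoxa2 are low in distal enterocyte-like cells of both.

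Transcripts of granulocyte markers, such as the calprotectin genes S100a8 and S100a9, were present with these genes throughout the Casp8-mutant library. In epithelial-like cells 14 of 14 markers were detected in the Casp8-mutant library and summed to 3645 CPM, with a UMI in 99.5% of cells, against 12 of 14 summing to 28.3 CPM and 11.9% of cells in the Mlkl-null library, where Csf3r and Cxcr2 were at 0. In the Casp8-mutant library the sum was 3649 CPM in cycling-like, 3331 CPM in goblet-like and 4218 CPM in distal enterocyte-like cells, and in the Mlkl-null library it was 24.1, 25.8 and 26.6 CPM in those types. The Casp8-mutant sum was no lower in distal enterocyte-like cells than in cycling-like or goblet-like cells, and its relation to the Duox2 and Duoxa2 levels was not tested. Myeloid markers, all 13 detected in both, summed to 702 and 296 CPM and lymphoid markers to 24.2 and 10.5 CPM in Casp8-mutant and Mlkl-null epithelial-like cells. The lymphoid markers Cd3e, Il7r, Cd79b and Ms4a1 were at 0 in the Casp8-mutant class. Erythroid markers summed to 10463 and 3017 CPM, fibroblast markers to 65.1 and 58.0 CPM and pancreatic acinar markers to 178 and 724 CPM in Casp8-mutant and Mlkl-null epithelial-like cells. The part of these transcripts in the other results was not tested.

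The oxidase list, which comprises catalytic subunits, organisers and activators of the NOX and DUOX enzymes, had 11 of 16 genes with at least 20 UMIs in epithelial-like cells. Among them 7 were at least 2-fold higher, 1 was lower and 3 lay within 2-fold, beside 17.9% higher and 20.3% lower over all genes. Their median log2 fold was 1.34, beside -0.19 over all genes. Without Duox2 and Duoxa2 the counts were 5, 1 and 3 of 9. The higher genes included the phagocyte oxidase subunit genes Ncf1 (17.7 CPM in Casp8-mutant and 0.188 CPM in Mlkl-null cells, from 35 and 1 UMIs; 93.7-fold, 15.8 to 3806) and Ncf4 (10.7-fold, 4.57 to 29.0) and the leukocyte GTPase gene Rac2 (11.1-fold, 6.83 to 18.8). These 3 genes each had a higher level in myeloid-like than in epithelial-like Casp8-mutant cells, for example 98.0 CPM for Ncf1 and 277 CPM for Rac2. The catalytic phagocyte subunit gene Cybb had 8 and 1 UMIs in Casp8-mutant and Mlkl-null epithelial-like cells, which is too few to measure.

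The other oxidase genes named here are those of the epithelial NOX1 complex, Nox4 and Cyba. Noxa1, the activator of NOX1, was at 8.57 CPM in Casp8-mutant and 3.39 CPM in Mlkl-null cells, 2.53-fold higher (1.22 to 5.20). Noxo1, the NOX1 organiser, was at 52.5 and 31.5 CPM in those cells, 1.67-fold (1.29 to 2.14), and Nox1 itself had 1 and 0 UMIs. Nox4, a constitutively active oxidase gene, was lower at 9.08 CPM in Casp8-mutant and 26.0 CPM in Mlkl-null cells (0.349-fold, 0.201 to 0.573). Cyba, which encodes the membrane partner p22phox, was at 248 and 226 CPM, a ratio of 1.1.

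Nos2 was the single measured gene of the nitric oxide and arginine list that was higher. The list had 10 measured genes of 15, of which 5 were lower and 4 lay within 2-fold, beside 20.3% lower over all genes. Its median log2 fold was -0.71. Ratios of this and the other lists were taken over the whole class, without weighting by type. In the joint clustering 496 Mlkl-null cells and no Casp8-mutant cell were enterocyte-like. The part of this difference in make-up in the list ratios was not tested. Ass1 and Asl, which rebuild arginine from citrulline, were at 124 and 64.1 CPM in Casp8-mutant cells, against 611 and 188 CPM in Mlkl-null cells, 0.203-fold (0.178 to 0.231) and 0.340-fold (0.281 to 0.410). The tetrahydrobiopterin genes were divided. Gch1, which encodes the entry enzyme of its synthesis, was at 177 CPM in Casp8-mutant and 103 CPM in Mlkl-null cells (1.71-fold, 1.496 to 1.96), while Qdpr, which recycles it, was at 86.2 and 342 CPM (0.252-fold, 0.214 to 0.295). Pts and Spr, the other synthesis genes, were 0.458-fold and 0.456-fold. With median-of-ratios scaling both left the lower group, which then held 3 genes, beside 15.6% lower over all genes. Nos1 had 0 UMIs in both embryos and Nos3 2 and 6.

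The immunoglobulin transport list was almost unmeasured apart from 2 of its 9 genes. Pigr was higher, and Fcgrt, which encodes the neonatal IgG receptor of the suckling gut, was at 171 CPM in Casp8-mutant and 1014 CPM in Mlkl-null epithelial-like cells (0.169-fold, 0.151 to 0.189). Fcgrt was itself among the leading genes of the Cd36-led enterocyte-like cluster of Mlkl-null cells. Jchain and Igha, which encode the joining chain and the heavy chain of the PIGR cargo, had 0 UMIs in epithelial-like cells of both embryos.

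Peroxide handling genes were mostly within 2-fold: 16 of the 21 measured were neither higher nor lower, 2 were higher and 3 lower, beside 17.9% and 20.3% of all genes, and the median log2 fold was -0.13. Gpx2, the glutathione peroxidase of the gastrointestinal epithelium, was at 1046 CPM in Casp8-mutant and 58.8 CPM in Mlkl-null cells, 17.8-fold higher (15.8 to 20.1). The difference was not confined to this class. Outside the epithelial-like class Gpx2 was at 209 CPM in Casp8-mutant and 19.7 CPM in Mlkl-null cells. In myeloid-like cells it was at 209 and 5.30 CPM. Gclc, the catalytic subunit gene of glutathione synthesis, was 2.02-fold higher (1.28 to 3.16), whereas its modifier subunit gene Gclm was 0.340-fold (0.268 to 0.427). Catalase (Cat) was at 87.3 CPM in Casp8-mutant and 267 CPM in Mlkl-null cells (0.326-fold, 0.277 to 0.382), and the lipid peroxidase gene Gpx4 was 0.425-fold (0.353 to 0.509).

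Among cytokine receptor and signal transducer genes, 28 of 30 were measured; 7 were higher, 3 were lower and 18 lay within 2-fold, around a median log2 fold of 0.12. Over all genes 17.9% were higher and 20.3% lower, so the higher share of this list was near that background. The interferon pathway genes Irf1 (141 CPM in Casp8-mutant and 46.3 CPM in Mlkl-null cells; 3.05-fold, 2.56 to 3.63) and Stat2 (2.35-fold, 1.88 to 2.93) were higher. So were Zc3h12a, which encodes an RNase that limits cytokine messages (3.62-fold, 2.51 to 5.24), Relb, an NF-kB subunit gene (3.23-fold, 1.999 to 5.25), and Myd88, the adaptor gene of Toll-like receptors (3.10-fold, 2.14 to 4.50). The 3 lower genes were Traf3ip2 (0.467-fold), the adaptor gene of IL-17 receptors, Tyk2 (0.462-fold) and Il10rb (0.499-fold). With median-of-ratios scaling 8 genes were higher and 0 lower, beside 21.8% higher and 15.6% lower over all genes. The IL-17 receptor genes Il17ra and Il17rc were at 1.49-fold (0.951 to 2.31) and 1.63-fold (1.21 to 2.17), and Stat3 at 0.892-fold (0.713 to 1.11).

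Genes with the most similar pattern were ranked by Pearson's r of log2(CPM + 10) over 20 disjoint groups of at least 20 cells from both libraries, which share their library, depth and free transcripts. Over 7219 candidate genes, Duox2 was followed most closely by Reg3g (r = 0.91), Reg3b (0.87), Duoxa2 (0.85), Ifit1bl1 (0.84) and Ubd (0.83). Duoxa2 was followed by Reg3g (0.87), Reg3b (0.85), Duox2 (0.85), Gpx2 (0.83) and Ly6a (0.82). Reg3g and Reg3b encode secreted antimicrobial lectins of the gut epithelium. Pigr was followed by a different set, Pglyrp1 (0.83), Sh3bgrl2 (0.82), Sfn (0.82), Ccdc71l (0.80) and Golm1 (0.80). Over the 10 Casp8-mutant groups alone, with 2722 candidates, the first gene was Ehf for Duox2 (0.94), Prss32 for Duoxa2 (0.89) and Cldn3 for Pigr (0.94). There, neither Duox2 nor Duoxa2 was among the 5 genes most similar to the other. Reg3g ranked 2 for Duoxa2 (0.88) and 4 for Pigr (0.90), but was not among the 5 for Duox2. Ehf encodes an epithelial transcription factor and Cldn3 a tight junction protein that is also an epithelial marker. Nos2 had too few UMIs for this ranking.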

How the data were processed

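Gene by barcode UMI counts were deposited per embryo by the authors as raw counts, which was checked by their being whole numbers. Libraries used 10x Chromium 3′ v2 chemistry with 0.5 mL papain for 30 min and about 10000 cells loaded, per the labels' protocols. Cell Ranger 3.0.2, Seurat 3.0 and mm10 are named in the submitters' processing notes; which step each served, and how barcodes were selected, is not stated there. Symbols matched 52403 of 52636 gene IDs (GENCODE M21).

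Barcodes with fewer than 500 genes (139 Casp8-mutant and 39 Mlkl-null) or more than 20% mitochondrial UMIs (0 and 0) were left out. Scrublet removed 2 and 4 doublets, so undetected doublets are possible. Cells were scaled to 10000 counts, log-transformed and clustered with scanpy 1.11.5 (2000 variable genes per library, 30 components, 15 neighbours, Leiden resolution 1, no integration). Clusters were named from marker lists with at least 3 markers in 10% of cells. Epithelial-like cells were clustered again (1500 variable genes, 20 components); the naming rule for types was set after these clusters were seen, and it left unnamed any cluster with the large-bowel genes Aqp8 or Atp12a among its 15 leading genes.

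UMIs were summed per library and group. Levels have exact Poisson, ratios conditional exact and shares Clopper-Pearson intervals (95%). A sum of 0 was set at 3 counts per group for folds, and no fold is given where neither sum exceeds 3. Size was judged at 2-fold among genes with at least 20 UMIs. No test was made with 1 embryo per genotype. Ratios and intervals were run on simulated Poisson sums with known folds. That checks the calculation only, because the simulated sums hold no variation between cells or embryos. The genes and lists were chosen with earlier results of these data known. Named were the 4 genes in groups of at least 20 cells, genes of the oxidase, nitric oxide and immunoglobulin lists, up to 6 higher and 6 lower genes of the other lists, and the 5 most similar genes. IL-17 receptor genes and Stat3 were named after their values were seen. Some list genes are counted but not reported here by name. Genes of few UMIs are limited by depth.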

Additional observations from a re-analysis of the deposited data

Results flagged for a closer look

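Among the 141 barcodes left out of the Casp8-mutant library, which had a median of 75.5% haemoglobin UMIs, Duoxa2 had 8 UMIs (39.3 CPM). A floor of 3 counts gives 14.7 CPM there. In the 43 barcodes left out of the Mlkl-null library Duoxa2 had 0 UMIs, but the floor there is 25.5 CPM. No interval was computed for these levels, so a difference between the left-out barcodes is not read from them. Duox2 had 0, Nos2 1 and Pigr 1 UMI in the left-out Casp8-mutant barcodes. The Pigr ratio of Casp8-mutant over Mlkl-null lay on different sides of 1 in 2 epithelial types, at 0.904 (0.647 to 1.26) in cycling-like and 1.91 (1.24 to 2.94) in goblet-like cells. That difference between types was not tested, and the interval in cycling-like cells includes a ratio of 1. Both types were a different mix of clusters in each embryo. Within each goblet-like cluster the separate Pigr level intervals of the embryos overlap. No ratio interval was computed there, so equal levels cannot be read from that overlap.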

How the results depend on the processing

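No paired analysis was possible because each genotype had 1 embryo, and for the same reason no replicate could be left out. Over the alternatives run, the log2 ratio of Duox2 ranged from 5.08 to 7.26 and that of Duoxa2 from 7.36 to 8.93. Nos2 ranged from 3.20 to 5.36 and Pigr from 0.62 to 1.98. No sign changed, but Duox2 and Nos2 had 0 UMIs in both retained and left-out Mlkl-null barcodes. Their unchanged sign is therefore no check on the result. None of the alternatives was a ratio within a single type, such as that of Pigr in cycling-like cells (0.904). Values outside the counting interval of the reported ratio arose for Duox2 (5.08), Nos2 (3.20) and Pigr (1.70) at 2000 UMIs per cell. Fewer UMIs against the same floor of 3 counts lower the bounds of Duox2 and Nos2 by construction; for Pigr, as for the other values that moved, the cause was not tested. Pigr was at 1.98 in cells with at least 1000 genes, of which the Casp8-mutant embryo had 65 epithelial-like ones, and at 1.57 as a mean over cells. Nos2 gave no value in cells with at least 1000 genes. Chosen after seeing the data, equal weights for 3 types gave 5.63 (Duox2), 3.33 (Nos2) and 0.62 (Pigr), and leaving out the nuclear RNA-led clusters gave 4.08 for Nos2. Leaving out cells with a granulocyte or myeloid marker UMI left 0 Casp8-mutant epithelial-like cells, so it gave no value. Clustering each library alone kept 402 Casp8-mutant and 1193 Mlkl-null epithelial-like cells. The count of genes past the size rule, in either direction, moved at 3-fold to 5 (oxidase), 3 (nitric oxide), 1 (immunoglobulin), 2 (peroxide) and 5 (cytokine). The oxidase count was 5 with at least 50 UMIs, the immunoglobulin count 4 with no minimum, and the peroxide count 10 at 1.5-fold. The share of all genes past these other thresholds was not computed. These counts thus have no background beside them and are not read as results about the lists. Levels by type stayed within their intervals when each library was clustered alone, but Casp8-mutant cycling-like cells were then unnamed and gave no value, and 36 Casp8-mutant cells were named enterocyte-like and 25 Paneth-like. At 1500 UMIs the Duoxa2 share was 18.1% in Casp8-mutant and 0% in Mlkl-null cells, and the Casp8-mutant Pigr share 10.7%; fewer UMIs lower a share by construction.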
